A study of Dirofilaria immitis with 5 samples.

Results

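The 103 small RNA sequences described here are the predicted miRNA candidates that reached 10 or more reads in at least 1 of 5 libraries. The libraries were made from culture medium of Dirofilaria immitis, and whether each sequence comes from the worm was not tested. Dirofilaria immitis, the canine heartworm, is a filarial nematode spread by mosquitoes. The deposited table held 1228 sequences of 18 to 25 nt, of which 173 were named after a known nematode miRNA and 1055 carried a name beginning with PC and were predicted by the authors' pipeline. Of the 1055, 946 stayed under 10 reads in every library and 6 of 10 or more reads were left out by name. The members were chosen by these read counts, so their abundance is given as a description. No read minimum was set for the named rows, of which 81 reached 10 reads in a library. At the limit, 4 members had 10 reads as their highest value, and 3 candidates just outside had 9.

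The medium came from live whole worms, with 1 library for each of microfilariae (the blood-borne offspring), L3 (third-stage larvae, the form that mosquitoes pass on), L4 (fourth-stage larvae) and adults of either sex, females and males apart. The labels give no strain, host, number of worms or culture time. With 1 library per stage or sex there was no spread between replicates, no test and no p-value, and each statement compares libraries. Table reads ran from 32983 in adult males and 34448 in L3 to 326187 in L4, 376070 in adult females and 727018 in microfilariae. They made up between 0.870% (L3) and 20.2% (microfilariae) of the mappable reads. Of reads with an adapter, 8.16% in microfilariae, 21.1% in L3, 18.7% in L4, 12.5% in females and 43.8% in males were under 18 nt after trimming. Those over 25 nt were 58.9%, 38.2%, 22.5%, 48.9% and 5.76% in that order. Shares are given per 100 table reads of a library, in percent. Parentheses hold exact 95% intervals for counting error alone, since amplified reads with no molecular identifier are not independent molecules.

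A miRNA is cut by the enzyme Dicer from a hairpin precursor, and either arm of the hairpin, 5p or 3p, can be loaded into an Argonaute protein. The loaded strand recognises target messenger RNAs mainly through its seed, bases 2 to 8, and nematode miRNAs often begin with uracil, written T here. Nematodes release small RNAs into their surroundings in part inside extracellular vesicles. A prediction program proposes a new miRNA where a sequenced fragment lies on one arm of a possible hairpin, a criterion that fragments of tRNA, rRNA or other RNA can also meet. Whether each candidate is a miRNA was not tested, since no worm genome was used here.

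The leading candidates of each library are shown first, because they hold most of the candidate reads. They are written 5′ to 3′ with the seed in capitals, as deposited.
PC-3p-521_2331: gAGGATCTatgagagggcaagtct
PC-3p-183_5819: tCCCGGCTcgtggcaccaaataga
PC-3p-408_2810: gAATTCCTctgcggtagttactgga
PC-3p-389_2939: aAGCATTTggatgagttg
PC-3p-903_1424: cGGATGGActcccaggccc
PC-5p-263_4142: aCCTGAGCaggatgaagc
PC-5p-2587_476: cATTTAGTggaccaatttttt
These 7 sequences run from 18 to 25 nt and no seed is repeated among them. PC-5p-799_1592, the leading candidate of adult males, has exact dog genome matches in the deposited listing, and its sequence is not printed.

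The candidates together took 7.56% (7.495 to 7.62) of the microfilarial reads, 10.4% (10.1 to 10.7) of the L3 reads, 1.65% (1.61 to 1.69) of the L4 reads, 13.8% (13.7 to 13.9) of the adult female reads and 10.9% (10.5 to 11.2) of the adult male reads. The rows named after known miRNAs held between 85.4% (adult females) and 98.3% (L4). Candidates thus had their highest share of the table in the female library and their lowest in L4, where the named miRNA bma-lin-4 alone took 91.2% of the named reads. Per mappable read the order differed: the candidates were 1.68% of the mappable reads in adult females, 1.53% in microfilariae, 0.109% in adult males, 0.0905% in L3 and 0.0837% in L4. On that scale microfilariae and adult females lay above the other 3 libraries. The order also changed with the most abundant rows left out of the totals. The share was then highest in L3 (37.5%) and lowest in microfilariae (11.1%), with 17.1% in L4, 17.8% in females and 22.0% in males. Without dog matches it was lowest in L3, at 0.636% against 0.730% in L4, and still highest in females at 8.07%.

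**Figure D1:**
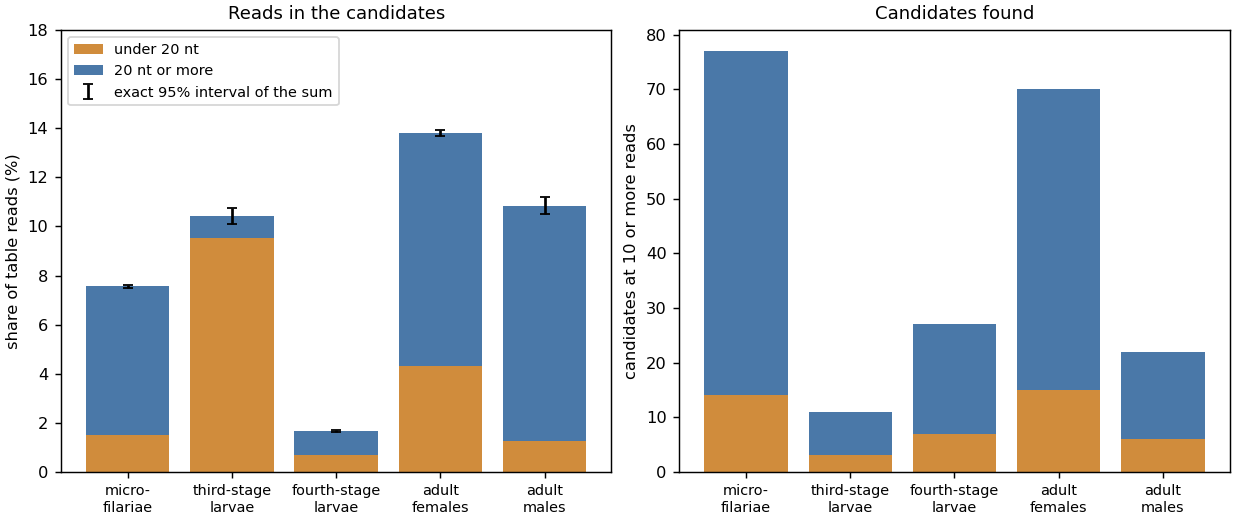
Left, percentage of each library's table reads in the candidates, with bars split by length and exact 95% binomial intervals of the sum; right, number of candidates at 10 or more reads, split the same way. Candidates under 20 nt make up nearly all of the L3 bar (9.53% of 10.4%), and microfilariae and adult females hold most of the candidates found, 77 and 70.

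A few sequences carried each sum. In L3 PC-3p-389_2939 alone held 89.8% of the candidate reads, while in L4 it held 38.3%. In adult males PC-5p-799_1592 held 43.3%. PC-3p-521_2331 led in microfilariae with 23.4% and in adult females with 27.2%, so these libraries were the least dominated by 1 candidate. The 10 most abundant candidates took 85.6% of the candidate reads in microfilariae, 97.4% in L3, 90.3% in L4, 87.4% in adult females and 86.0% in adult males. The median candidate had 20 reads in microfilariae, 0 in L3, 0 in L4, 19 in adult females and 1 in adult males.

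PC-3p-389_2939 (18 nt) was a larval sequence in these libraries. It had 0 reads in microfilariae, 3219 in L3, 2060 in L4, 0 in adult females and 0 in adult males. Its share was 9.34% (9.04 to 9.66) of the L3 table, where only bma-lin-4 was higher, and 0.632% (0.605 to 0.659) of the L4 table. A count of 0 allows a share of up to 0.000413% in microfilariae, 0.000798% in adult females and 0.00910% in adult males, and the larval shares lie far above each of these. The table lists 7 matches for it in the dog genome, all with 1 mismatch.

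PC-3p-521_2331 (24 nt) was foremost in microfilariae and adult females. It had 12879 reads in microfilariae, 7 in L3, 108 in L4, 14143 in adult females and 113 in adult males. These are 1.77%, 0.0203%, 0.0331%, 3.76% and 0.343% of the tables, so it ranked 10 in the microfilarial and 5 in the female table and was a minor sequence in both larval libraries. It has no listed dog match. PC-5p-717_1743 (18 nt) was also high in these libraries, with 4021 reads in microfilariae, 1 in L3, 10 in L4, 1236 in adult females and 3 in adult males. PC-5p-1987_638 (20 nt) was likewise higher in these libraries, with 1834, 0, 33, 2105 and 12 reads in the order of the stages.

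PC-3p-183_5819 (24 nt) was abundant in every library. Its reads were 9192 in microfilariae, 43 in L3, 622 in L4, 5256 in adult females and 297 in adult males. The shares, 1.26%, 0.1248%, 0.191%, 1.40% and 0.9005%, put it among the 3 leading candidates of every library but adult females, where its rank was 4. PC-5p-263_4142 (18 nt) had 5000, 22, 54, 5806 and 157 reads in the same order, with its highest share in adult females (1.54%) and its lowest in L4 (0.0166%). PC-3p-408_2810 (25 nt) was highest in microfilariae at 0.716% (5206 reads), against 0.105% (36 reads) in L3, 0.0487% (159 reads) in L4, 0.177% (666 reads) in adult females and 0.0273% (9 reads) in adult males.

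Further candidates had their highest share in the female library. PC-3p-903_1424 (19 nt) had 858 reads in microfilariae, 3 in L3, 19 in L4, 7995 in adult females and 60 in adult males, and its female share was 2.13% (2.08 to 2.17). PC-5p-6667_154 (22 nt) had 475, 0, 1, 1699 and 20 reads. PC-5p-2643_466 (21 nt) had 716, 0, 0, 1406 and 18 reads. All of these were also found in microfilariae and were at 3 reads or fewer in L3. 3 candidates had 20 or more reads in the female library and 0 in each of the others: PC-3p-20309_35 with 154, PC-5p-17812_42 with 98 and PC-3p-52391_10 with 35. No other library held such a candidate at 20 or more reads. The same count is not given for the other rows, and it depends on depth. As a scale, 10 reads are 0.00266% of the female table, 0.0290% of the L3 and 0.0303% of the male table. PC-3p-52391_10 was at 0.00931% in females, while a count of 0 allows up to 0.00871% in L3 and 0.00910% in males.

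In adult males the leading candidates were PC-5p-799_1592, PC-3p-183_5819 and PC-5p-2587_476. PC-5p-799_1592 (21 nt) had 2841 reads in microfilariae, 77 in L3, 647 in L4, 4787 in adult females and 1550 in adult males. By share it was highest in males at 4.70% (4.47 to 4.93), against 0.391% in microfilariae, 0.224% in L3, 0.198% in L4 and 1.27% in adult females. Per mappable read it was instead higher in adult females and microfilariae than in adult males. The mappable reads were 3091465, 3595213 and 3293116 in these libraries. The listing gives 10 exact dog genome matches for it and for PC-3p-2841_427 (24 nt), whose first 21 bases are the same. PC-5p-2587_476 (21 nt) had 787, 10, 215, 126 and 289 reads in the order of microfilariae, both larval stages, females and males, and its male share was 0.876% (0.778 to 0.983).

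**Figure D2:**
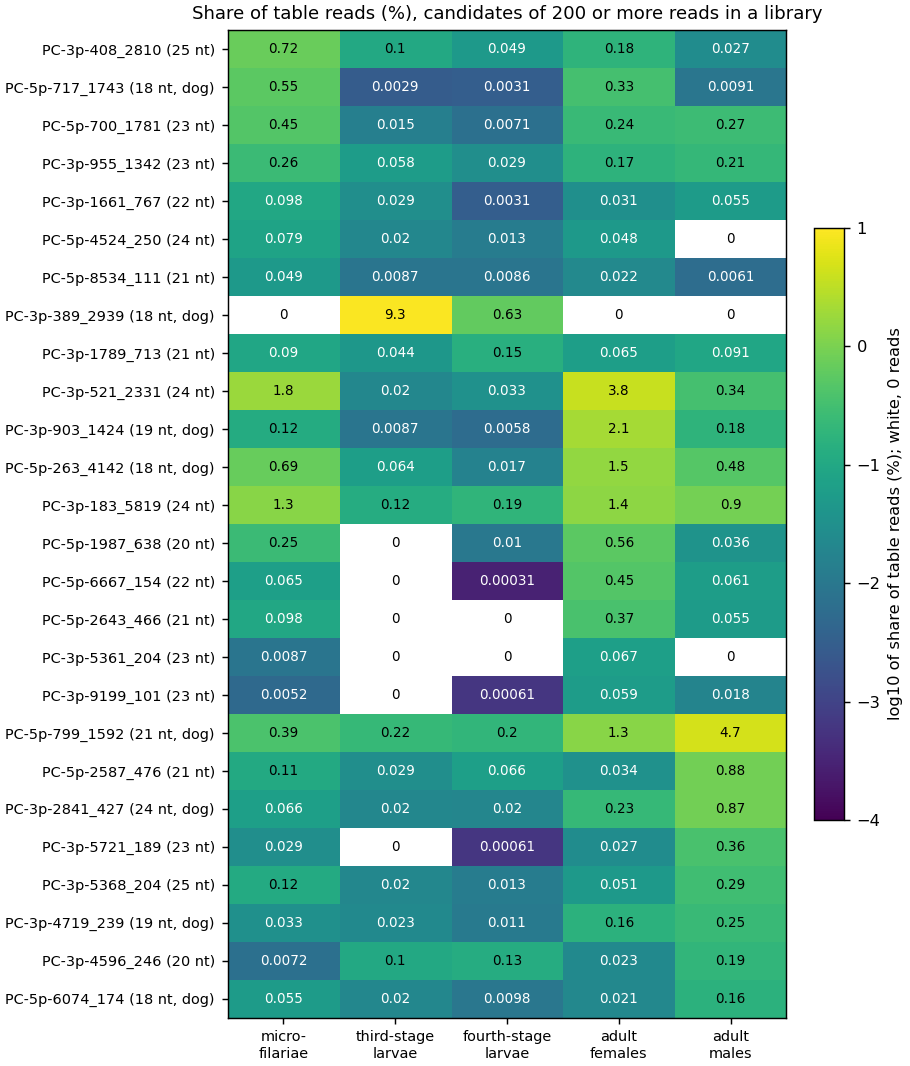
Share of table reads (%) of each candidate with 200 or more reads in a library (rows) in the 5 libraries (columns); colour is the log10 of the share, white cells had 0 reads, and dog marks rows with a listed dog genome match. PC-3p-389_2939 is at 9.34% and 0.632% in the larval libraries and at 0 elsewhere, and PC-3p-521_2331 peaks at 3.76% in adult females.

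The arm in the name divided the candidates nearly evenly by number and unevenly by reads. Of the 103, 53 were named 3p and 50 were named 5p. The 3p names held 61.9% of the candidate reads in microfilariae, 95.8% in L3, 77.97% in L4 and 62.4% in adult females. In adult males the 5p names held the larger part, 63.8%, against 36.2% for 3p. The sequences that led each library set these figures: the 3p excess of L3 was PC-3p-389_2939, and the 5p excess of males was PC-5p-799_1592. Among the candidates under 10 reads, 50.3% of 946 were named 3p.

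Arm names did not separate sequences cleanly. In 6 pairs of candidates the members shared 16 or more bases on the same strand, and in 5 of these 6 pairs one row was named 5p and its partner 3p. PC-5p-4524_250 (gAATTCCTctgcggtagttactgg) is PC-3p-408_2810 without its last base, and it had 577 reads in microfilariae, 7 in L3, 41 in L4, 180 in adult females and 0 in adult males. That is 11.1% (10.2 to 12.1) of the reads of PC-3p-408_2810 in microfilariae and 27.0% (22.8 to 31.9) in adult females. The proportion of the shorter form therefore differed between these libraries beyond counting error. PC-3p-2841_427, the longer form of PC-5p-799_1592, stood at 17.0% (15.4 to 18.7) of it in microfilariae, 9.09% (3.54 to 19.6) in L3, 10.05% (7.66 to 12.98) in L4, 17.97% (16.7 to 19.3) in adult females and 18.5% (16.3 to 21.01) in adult males. The L4 value lay below those of microfilariae, females and males, and the L3 value was not resolved at 77 and 7 reads. The other pairs were PC-5p-6074_174 with PC-3p-5368_204, PC-3p-34525_17 with PC-5p-46613_11, PC-5p-158944_3 with PC-3p-330235_2, and PC-3p-955_1342 with PC-3p-26603_24, the pair with the same arm. Rows of a pair share their sequence, so counts of candidates do not rest on independent members.

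One pair of candidates was complementary. They are shown because a hairpin's arms pair with each other.
PC-5p-48814_11: gATATGGAttatgactcgtct
PC-3p-118430_4: gACGAGTCataatccatatcta
They pair over 20 bases with no mismatch, leaving 1 base unpaired at the 3′ end of the first and 2 at the 3′ end of the second. PC-5p-48814_11 had 18 reads in microfilariae, 0 in each larval library, 11 in adult females and 2 in adult males. PC-3p-118430_4 had 14, 0, 0, 3 and 2 reads in the same order, so both were found at 10 or more reads in microfilariae. This pair was the only one among the candidates with 16 or more complementary bases. It was singled out after its values were seen.

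By length the candidates spread over the whole window of 18 to 25 nt. Of the 103, 21 (20.4%) were under 20 nt and 50 (48.5%) were of 21 to 23 nt. Among all named rows, which had no read minimum, these were 20.2% and 57.2%. At 10 or more reads, named rows under 20 nt numbered 3 in microfilariae, 0 in L3, 1 in L4, 5 in adult females and 1 in adult males. Candidates under 20 nt at 10 or more reads numbered 14, 3, 7, 15 and 6 in that order. Candidates of 21 to 23 nt held 23.1% of the candidate reads in microfilariae, 4.10% in L3, 28.5% in L4, 22.2% in adult females and 63.3% in adult males. Named rows of that length held 93.9%, 98.9%, 99.2%, 96.3% and 97.3% of the named reads.

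Candidates under 20 nt held 19.6% of the candidate reads in microfilariae, 91.5% in L3, 42.6% in L4, 31.2% in adult females and 11.5% in adult males. As a share of the table this is 1.48%, 9.53%, 0.703%, 4.30% and 1.24%. The libraries also differed in read length before selection, and the bearing of that on these shares was not tested. The larval values were those of PC-3p-389_2939, and the female value came mainly from PC-3p-903_1424 and PC-5p-263_4142. Named rows under 20 nt held at most 1.796% of the named reads, in adult males. At the other end, candidates of 24 or 25 nt held 53.5% of the candidate reads in microfilariae and 42.2% in adult females, through PC-3p-521_2331, PC-3p-183_5819 and, in microfilariae, PC-3p-408_2810, while named rows of that length held 5.12% and 1.65% of the named reads there.

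**Figure D3:**
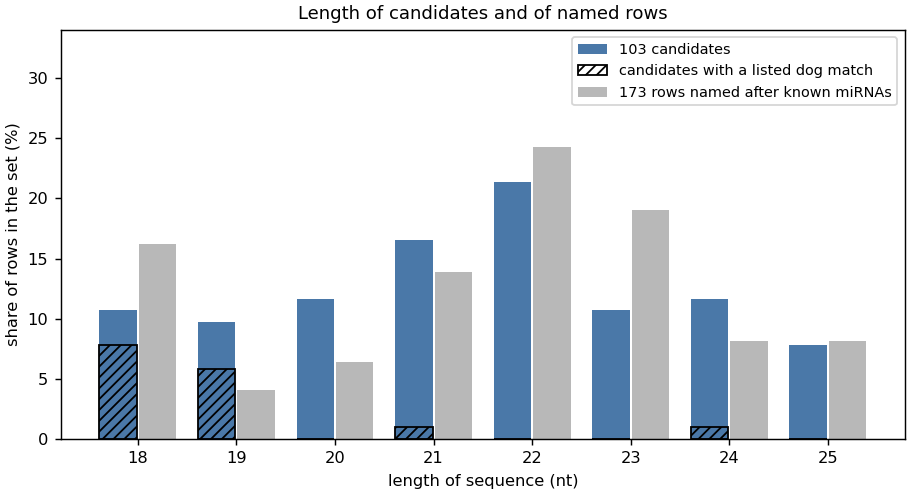
Percentage of rows at each length in nt among the candidates (left bars) and the rows named after known miRNAs (right bars); hatching marks candidates with a listed dog genome match. Candidates and named rows both peak at 22 nt (21.4% and 24.3%), and all but 2 of the 16 candidates with a dog match are 18 or 19 nt long. The named rows had no read minimum.

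The first base also differed between the sets. Of the candidates, 23 of 103 (22.3%) began with T, 41 (39.8%) with A, 30 (29.1%) with G and 9 (8.74%) with C. Among the named rows, which had no read minimum, 52.6% began with T and 8.67% with G. The candidates under 10 reads were close to the members, with 21.6% beginning with T. By reads, candidates beginning with T held between 2.04% (L3) and 19.01% (microfilariae) of the candidate reads, against 46.0% (adult females) to 97.2% (L4) for named rows. Median GC content was 45.8% in the candidates and 47.6% in the named rows.

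Matches in the dog genome were listed for 16 of the 103 candidates (15.5%) and for 20 of the 173 named rows (11.6%). The named rows had no read minimum. The listing gives at most 10 matches for a row and at most 1 mismatch in a match. Listed candidates were short: 14 of the 21 under 20 nt (66.7%) had a match and 2 of the 82 others (2.44%), namely PC-5p-799_1592 and PC-3p-2841_427. Among short rows of the other sets, 14 of 205 candidates under 10 reads (6.83%) and 5 of 35 named rows (14.3%) had one. In 11 of the 16 every listed match had a mismatch. The other 5, with at least 1 exact match, were PC-5p-799_1592, PC-3p-2841_427, PC-3p-4719_239, PC-5p-6074_174 and PC-5p-39570_14.

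The listed candidates held a part of the reads far above their number. They took 25.4% of the candidate reads in microfilariae, 93.9% in L3, 55.7% in L4, 41.6% in adult females and 62.6% in adult males. The 5 with exact matches took 7.30%, 2.76%, 14.5%, 12.3% and 55.1%. Males and L3 thus had the largest parts of their candidate reads in listed rows. This came through exact matches in males and through the inexact matches of PC-3p-389_2939 in L3. Without the 16, the candidates were 5.64% of the microfilarial table, 0.636% of the L3, 0.730% of the L4, 8.07% of the female and 4.06% of the male table. Whether any of these reads came from the dog or from culture medium was not tested.

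Some candidates were near copies of named miRNAs. Aligned from base 1, 10 of the 103 (9.71%) matched a named row with at most 2 mismatches, against 12 of 946 (1.27%) of the candidates under 10 reads. A seed shared with a named row was found in 13 of 103 (12.6%), these 10 included, against 28 of 946 (2.96%). Of the 5 near copies with 50 or more reads in a library, 4 are shown here beside the named row each resembles, with the seed in capitals. Positions count from 1 at the 5′ end, and a substitution gives the base of the named row first.
PC-5p-700_1781: aACCCGTAgaattgaaatcgtgg
bma-miR-100c_R+1_1ss12CT: aACCCGTAgaattgaaatcgtgt
PC-3p-4596_246: aTAAAGCTagacgaccggag
asu-miR-9-3p_R-3_1ss18AG: aTAAAGCTggacgaccggag
PC-3p-5721_189: tAATATCAtatgaaagccgaaga
bma-miR-5861_1ss11CT: tAATATCAtatgaaagctgaaga
PC-3p-1661_767: tGAGATCAcgttacatccgtct
asu-miR-81c-3p_R-3_1ss9TC: tGAGATCAcgttacatccg
PC-5p-700_1781 differs from the miR-100c row by T23G, PC-3p-4596_246 from the miR-9 row by G9A and PC-3p-5721_189 from the miR-5861 row by T18C, while PC-3p-1661_767 holds the whole miR-81c row and runs 3 bases further. Each seed is intact in all of these pairs.

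PC-5p-700_1781 carried the seed of the miR-100 family, which shares it with 8 named rows. It had 3269 reads in microfilariae, 5 in L3, 23 in L4, 917 in adult females and 90 in adult males. Against the reads of bma-miR-100c_R+1_1ss12CT this was 10.1% (9.72 to 10.4) in microfilariae, 5.15% (1.64 to 12.4) in L3, 5.42% (3.40 to 8.25) in L4, 12.3% (11.5 to 13.2) in adult females and 10.2% (8.09 to 12.6) in adult males. Its reads moved with those of that row within a range of 5.15% to 12.3%, and the female proportion lay above the microfilarial one beyond counting error.

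The other 4 near copies with 50 or more reads in a library had more reads than the row they resembled. Further named rows share the seeds of PC-3p-4596_246, PC-3p-5721_189 and PC-3p-1661_767. The counts below therefore do not rank the forms of a miRNA. PC-3p-4596_246 had 52 reads in microfilariae, 36 in L3, 411 in L4, 88 in adult females and 64 in adult males, whereas asu-miR-9-3p_R-3_1ss18AG had 1 in L4, 1 in adult females and 0 in the rest. Its share was lowest in microfilariae (0.00715%) and highest in adult males (0.194%). The miR-9 family is known from vertebrate neural development. PC-3p-5721_189 had 211, 0, 2, 102 and 119 reads in the same order of libraries, and bma-miR-5861_1ss11CT had 1, in adult females. PC-3p-1661_767 had 715, 10, 10, 115 and 18 reads and asu-miR-81c-3p_R-3_1ss9TC had 8, 0, 2, 0 and 0. The seed of PC-3p-1661_767 is that of miR-81 and of bantam, a regulator of growth in Drosophila. Another named row with this seed, asu-miR-81b-3p_1ss18TC, had 618, 16, 13, 134 and 33 reads. It thus had more reads than PC-3p-1661_767 in every library but microfilariae. PC-3p-5361_204 (tACTGGCCtctcaaactctggga), which begins with the whole of prd-miR-240-3p_R-4_1ss10TC, had 63 reads in microfilariae, 252 in adult females and 0 in the other 3 libraries, against 1 read of that row in each of microfilariae and adult females.

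Near copies under 50 reads, named here after their values were seen, were PC-3p-38320_15 (tGAGATCAtgccacatccgtcc), PC-3p-36052_16 (tAGCACCAtttaaattcagtag), PC-3p-19249_37 (tGTCATGGagttgctctctttat), PC-5p-49976_10 (aAGAGAGCcacctgttgacagta) and PC-3p-58955_8 (cACGATTCtattctcgggtaga). PC-3p-38320_15 differs from asu-miR-81b-3p_1ss18TC by T22C, and PC-3p-36052_16 differs from cel-miR-83-3p_2ss10AT22AT by T22G. PC-3p-58955_8 begins with the whole of bma-mir-100c-p3_1ss10GA, which is 18 nt long. PC-5p-49976_10 and PC-3p-19249_37 are each 1 base longer than a row of the opposite arms of miR-46, asu-miR-46-5p_1ss11TC and cel-miR-46-3p_2ss12CT21CT. All 5 had their highest count in microfilariae, between 11 and 44 reads, and at most 3 reads in every other library except for the 8 female reads of PC-3p-38320_15. In microfilariae 4 of them had fewer reads than the row they resembled: PC-3p-38320_15 had 28 against 618, PC-3p-36052_16 had 15 against 264, PC-5p-49976_10 had 15 against 142 and PC-3p-19249_37 had 44 against 102. PC-3p-58955_8 had 11 against 1. Of the remaining candidates with a shared seed, PC-5p-799_1592 and PC-3p-2841_427 have the seed of miR-57 and PC-5p-20085_35 that of ppc-mir-252-p3_1ss8AC, with no match beyond it under the limit of 2 mismatches. PC-5p-20085_35 had 22 reads in microfilariae, 0 in L3, 4 in L4, 73 in adult females and 28 in adult males.

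At 10 or more reads, 77 candidates were found in microfilariae, 11 in L3, 27 in L4, 70 in adult females and 22 in adult males. The membership rule used the same counts, and the numbers follow depth in part. At 1 minimum share for all libraries, 0.0303%, which is 10 reads in the smallest, the numbers were 21, 9, 8, 25 and 22. Of the 103, 49 (47.6%) were found in 1 library and 8 (7.77%) in all 5. Of the 81 named rows with 10 or more reads, 28.4% were found in 1 library and 20.99% in all 5. The commonest pattern was microfilariae with adult females and no other library, in 28 candidates, followed by microfilariae alone in 24 and adult females alone in 17. L4 alone held 6, L3 alone held 1, PC-3p-37030_15 at 12 reads, and adult males alone held 1, PC-3p-46709_11 at 12 reads. Neither of these single cases had 0 reads in all the others. The pattern counts are not given for the other rows or at 1 minimum share, so they do not set the candidates apart. They rest on 10 reads, which are 0.00138% of the microfilarial and 0.00266% of the female table. In L3 and males 10 reads are 0.0290% and 0.0303%.

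The 8 candidates found everywhere were PC-5p-799_1592, PC-5p-263_4142, PC-3p-183_5819, PC-5p-2587_476, PC-3p-955_1342, PC-3p-4596_246, PC-3p-1789_713 and PC-3p-1661_767. PC-3p-1789_713 (21 nt) had the smallest ratio of highest to lowest share among the 8, with 657 reads (0.0904%) in microfilariae, 15 (0.0435%) in L3, 474 (0.145%) in L4, 243 (0.0646%) in adult females and 30 (0.0910%) in adult males. PC-3p-955_1342 (23 nt) had 1895, 20, 95, 649 and 69 reads, and its share lay between 0.0291% in L4 and 0.261% in microfilariae. By table share, 43 of the 103 candidates had their highest value in adult females, 29 in microfilariae, 22 in adult males, 7 in L3 and 2 in L4. Per mappable read the numbers were 48, 45, 1, 2 and 7. The membership rule of 10 reads bears on these numbers, which are not given for the other rows. The 10 reads are 0.00138% of the microfilarial, 0.00266% of the female and 0.00307% of the L4 table. They are 0.0290% of the L3 and 0.0303% of the male table, so candidates of small share could enter only through the deeper libraries.

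The candidates were compared between libraries by the ratio of their shares, over rows with 10 or more reads in either library. A row was called at 2-fold or more on the point ratio. With 0 reads in 1 library, 3 counts in that library stood for the 0 and the fold is a lower bound. Medians hold such rows at their bound, or at a log2 of 0 where the bound lay on the far side of equal shares. The comparisons share libraries, so they are not independent of each other. Numbers under other scalings are given for the candidates alone. A scaling moves the named rows of a comparison as well, so these numbers do not set the candidates apart from the table.

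Between the sexes, candidates went both ways. Of 71 compared, 23 (32.4%) were at least 2-fold higher in adult females than in adult males and 13 (18.3%) were at least 2-fold lower, against 33.6% and 20% of all 140 rows compared. For 17 of the 23 and 10 of the 13 the interval excluded equal shares, against 35 of 47 and 25 of 28 among all rows. The candidates' split was near that of the table, whose 140 rows include the 71 candidates. The median log2 ratio was 0 for both, the value at which undecided rows with 0 reads were held. In males 27 of the candidates and 43 of the 140 rows had 0 reads, so these medians do not measure equal shares. Per mappable read the numbers were 66 higher and 2 lower, and with the most abundant row of either library left out of the totals 16 and 19. Every log2 ratio moves by 3.60 per mappable read and by 0.83 under TMM scaling, which gave 31 and 9.

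The female-to-male ratio was highest for PC-5p-717_1743 at 36.1 (12.3 to 175), with 1236 reads in females and 3 in males. It was 15.4 (8.79 to 29.8) for PC-5p-1987_638 with 2105 and 12 reads. PC-3p-903_1424 stood at 11.7 (9.07 to 15.3) and PC-3p-521_2331 at 10.98 (9.12 to 13.3). These 4 were higher in females under every scaling tried. At the other end, PC-5p-2587_476 had a ratio of 0.0382 (0.0308 to 0.0473), with 126 reads in females and 289 in males, and PC-3p-5721_189 one of 0.0752 (0.0571 to 0.0988), with 102 and 119 reads. Both were lower in females under every scaling tried, PC-3p-5721_189 by a log2 of only -0.13 per mappable read. PC-3p-4596_246 (0.121 (0.0864 to 0.169)) and PC-5p-6074_174 (0.132 (0.0924 to 0.191)) were lower in females by table share and higher per mappable read.

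L4, set against L3 across a molt, had few candidates above them. Of 28 compared, 2 (7.14%) were at least 2-fold higher in L4 and 10 (35.7%) at least 2-fold lower, against 6.06% and 50% of all 66 rows. The median log2 ratio was -0.64 for the candidates and -1.02 for all rows. The interval excluded equal shares for both of the 2 and for 5 of the 10, against 3 of 4 and 27 of 33 among all rows. The split depended on the scaling: it was 4 and 5 under TMM, 11 and 3 by median of ratios, 6 and 4 with the size parameter of the file header, 23 and 2 per mappable read and 13 and 3 without the most abundant row of either library.

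PC-3p-1789_713 had the highest L4-to-L3 ratio, 3.34 (2.003 to 6.01), with 474 reads against 15, and PC-5p-2587_476 followed at 2.27 (1.21 to 4.803). For PC-3p-183_5819 the ratio was 1.53 (1.12 to 2.13), and for PC-3p-521_2331, at 1.63 (0.764 to 4.15) with 108 and 7 reads, the interval included equal shares. The larval sequence PC-3p-389_2939 had the lowest ratio among candidates of 50 or more reads, 0.0676 (0.0639 to 0.0714), and stayed lower in L4 under every scaling. PC-5p-263_4142 (0.259 (0.155 to 0.447)) was lower in L4 by share and higher per mappable read. PC-3p-408_2810 (0.466 (0.323 to 0.690)) and PC-3p-955_1342 (0.502 (0.307 to 0.858)) were lower by share and higher under median of ratios scaling, per mappable read and without the most abundant rows.

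L3 set against microfilariae gave more candidates at a lower than at a higher share. Of 79 compared, 3 (3.797%) were at least 2-fold higher in L3 and 21 (26.6%) at least 2-fold lower, against 11.3% and 31.8% of all 151 rows. The median log2 ratio was 0 for both, again the value at which undecided rows with 0 reads were held, and does not measure equal shares. The interval excluded equal shares for all 3 and for 20 of the 21, against 16 of 17 and 45 of 48 among all rows. Of the 79, 53 had 0 reads in L3, and for most of them the limit set by 34448 reads was too high to decide. The numbers were 5 and 12 under TMM, 9 and 8 by median of ratios, 11 and 5 with the library size parameter and 2 and 76 per mappable read. PC-3p-389_2939 was at least 22645-fold higher in L3. PC-3p-4596_246 was at 14.6 (9.28 to 22.8), with 36 reads against 52, and turned to lower per mappable read. PC-5p-717_1743 had a ratio of 0.00525 (0.000133 to 0.0293), with 1 read against 4021, and PC-3p-521_2331 one of 0.0115 (0.00461 to 0.0236). For PC-5p-700_1781 the ratio was 0.0323 (0.0105 to 0.0754), and PC-5p-1987_638, with 0 against 1834 reads, was at least 29.0-fold lower. These 4 were lower in L3 under every scaling. PC-3p-34525_17, with 0 against 61 reads, and PC-3p-41497_13, with 0 against 56, could not be decided by share and were lower per mappable read.

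Adult females set against microfilariae gave more candidates at a higher than at a lower share. Of 94 compared, 47 (50%) were at least 2-fold higher in adult females and 22 (23.4%) at least 2-fold lower, against 42.5% and 28.2% of all 174 rows. The median log2 ratio was 0.99 for the candidates and 0.10 for all rows. The interval excluded equal shares for 45 of the 47 and 15 of the 22, against 72 of 74 and 40 of 49 among all rows. The numbers were 45 and 26 by median of ratios, 48 and 19 with the size parameter of the file header and 42 and 27 without the most abundant rows. They were 36 and 36 under TMM scaling and 33 and 36 per mappable read, so the excess in females was absent under these 2 scalings. PC-3p-20309_35 (154 reads against 0) was at least 99.2-fold and PC-5p-17812_42 (98 against 0) at least 63.2-fold higher in females. PC-3p-16645_46 had a ratio of 22.7 (13.6 to 40.6), with 188 reads against 16, and PC-3p-903_1424 one of 18.01 (16.8 to 19.4). Lower in females were PC-3p-408_2810 at 0.247 (0.228 to 0.268), PC-5p-2587_476 at 0.310 (0.254 to 0.374), PC-3p-1661_767 at 0.311 (0.253 to 0.379) and PC-5p-6074_174 at 0.390 (0.302 to 0.496). All of these kept their direction under every scaling tried.

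**Figure D4:**
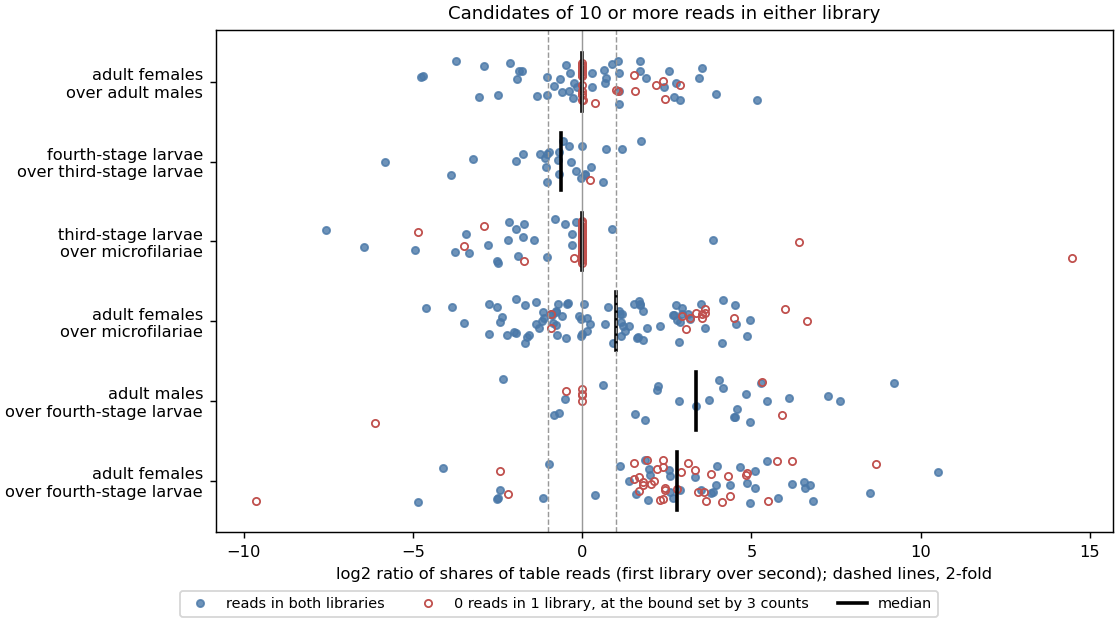
Log2 ratio of shares of table reads for each candidate with 10 or more reads in either library, in 6 comparisons; filled points have reads in both libraries, open points stand at the bound set by 3 counts, black bars are medians and dashed lines mark 2-fold. The median is 3.37 for males over L4. It is 0 for females over males, the value at which undecided candidates with 0 reads were held. PC-3p-389_2939 is the point farthest right in L3 over microfilariae.

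Both adult libraries stood above L4 in most candidates by share, as did most rows of the table. Of 33 candidates compared, 22 (66.7%) were at least 2-fold higher in adult males than in L4 and 2 (6.06%) at least 2-fold lower, against 67.5% and 10.4% of all 77 rows. Of 77 compared, 66 (85.7%) were at least 2-fold higher in adult females than in L4 and 9 (11.7%) at least 2-fold lower, against 85.1% and 11.5% of all 148 rows. The interval excluded equal shares for 21 of the 22 and 1 of the 2 in males, and for all 66 and all 9 in females. Among all rows it did so for 48 of 52 and 7 of 8 in males, and for all 126 and all 17 in females. The median log2 ratio over L4 was 3.37 for the candidates and 2.84 for all rows in males, and 2.79 and 3.07 in females. The candidates' numbers were close to those of the table, in which bma-lin-4 took most of the L4 reads. With the most abundant row of either library left out, the numbers became 16 and 12 for males and 24 and 17 for females. Under TMM scaling they were 13 and 13 for males and 34 and 12 for females, and under median of ratios scaling 13 and 14 for males and 23 and 18 for females. The library size parameter gave 13 and 15 for males and 23 and 18 for females, and mappable reads gave 17 and 10 for males and 67 and 7 for females.

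PC-3p-5721_189 had the highest male-to-L4 ratio, 588 (159 to 4915), with 119 reads against 2. PC-3p-2841_427 stood at 43.7 (33.3 to 58.1), PC-5p-700_1781 at 38.7 (24.3 to 64.1) and PC-3p-903_1424 at 31.2 (18.4 to 55.4). PC-3p-389_2939, with 0 reads in males against 2060, was at least 69.4-fold lower in males. PC-3p-42148_13, with 1 read against 50, had a ratio of 0.198 (0.00491 to 1.15), and PC-3p-408_2810 one of 0.560 (0.251 to 1.09), intervals that include equal shares. PC-3p-1789_713 stood at 0.626 (0.418 to 0.906). All 8 kept their direction under each scaling.

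In females over L4, PC-5p-6667_154 had a ratio of 1474 (264 to 58240), with 1699 reads against 1. PC-5p-2643_466, with 1406 against 0, was at least 407-fold higher in females, PC-3p-903_1424 stood at 365 (234 to 607) and PC-3p-521_2331 at 114 (94.0 to 139). PC-3p-389_2939, with 0 against 2060 reads, was at least 792-fold lower in females. PC-3p-42148_13 had a ratio of 0.0347 (0.00409 to 0.132), with 2 reads against 50, and PC-3p-4596_246 one of 0.186 (0.146 to 0.234). PC-3p-1789_713 at 0.445 (0.379 to 0.520) was lower in females by share and higher, by a log2 of 0.091, per mappable read.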

How the data were processed

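Small RNA from the culture medium of 5 groups of live worms was sequenced, 1 library each, from Norgen Biotek kit RNA and Illumina TruSeq small RNA libraries, per the labels' protocols. Tools named in the submitters' processing notes are bcl2fastq 1.8.4 and Bowtie. Adapters were trimmed and lengths of 18 to 25 nt kept, per the file headers. The authors' deposited raw columns hold estimated counts with no normalization. The deposited normalized signal is the raw count divided by 1 library size parameter per library, with 0.001 for a raw 0; this held for every value, and the signal entered no result. The genome build and the settings of alignment and prediction are not stated by the labels or the file; 1 line of it is not analysed here.

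Counts were rounded to whole numbers (7 candidates had fractional values). Depth, as table reads, sets the limit that a count of 0 allows, taken as 3 counts. Intervals (95%) are exact: Clopper-Pearson for a share, conditional binomial for a ratio (Python 3.11.15, scipy 1.17.1), checked on simulated counts. TMM factors came from edgeR 4.0.16 in R 4.3.3, and median of ratios factors from rows above 0 in every library. Sequences were compared without gaps.

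Candidates named are the 6 of highest share per library, the 4 highest and 4 lowest ratios per comparison among those with 50 or more reads in either library, those found in all 5 libraries, those with 20 or more reads in 1 library and 0 elsewhere, those of 50 or more reads resembling a named row, and others said to be singled out or short enough in number to list. Members and rules were chosen with earlier results of these data known. Alternatives changed the scaling, read minimum, fold, length limit and dog matches.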

Additional observations from a re-analysis of the deposited data

How the results depend on the processing

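No paired analysis was possible because each group had 1 library and no replicate could be left out. For the same reason, no value here has a spread between replicates. The candidates' share per library (in the order microfilariae, L3, L4, females, males) became 1.53%, 0.0905%, 0.0837%, 1.68% and 0.109% per mappable read; 11.1%, 37.5%, 17.1%, 17.8% and 22.0% with the most abundant rows left out of the total; and 5.64%, 0.636%, 0.730%, 8.07% and 4.06% without dog matches. With every candidate it was 7.75%, 1.70%, 14.6% and 11.7% in microfilariae, L4, females and males, and it stayed within counting error in L3. A minimum of 5 or 20 reads for membership left the share within counting error in each library. Depth limits the L3 and male libraries most.

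Of candidates found, L3 held 22 at 5 reads, 7 at 20 reads and 7 without dog matches; females held 116 at 5 reads and males 14 without dog matches. At 1 minimum share the numbers were 21 in microfilariae, 8 in L4 and 25 in females. Names with 3p made up 66.8% by reads (mean of libraries). Rows under 21 nt were 32.0%, and those under 20 nt were 39.3% by reads. Exact dog matches were 4.85% of rows, and listed rows were 55.8% by reads.

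Numbers of candidates at least 2-fold higher and lower moved by over 1.5 times as follows. The same numbers are not given for all rows. Females over males had 66 and 2 per mappable read, and 8 lower without dog matches. L4 over L3 had 4 and 5 under TMM, 11 and 3 under median of ratios, 6 and 4 with the library size parameter, 23 and 2 per mappable read, 13 and 3 without the most abundant rows, 1 and 5 at 3-fold, 6 lower at 20 reads and 5 lower without dog matches. L3 over microfilariae had 5 and 12 under TMM, 9 and 8 under median of ratios, 11 and 5 with the library size parameter, 76 lower per mappable read, 5 and 12 without the most abundant rows, 10 higher at 1 read and 1 higher without dog matches. Females over microfilariae had 36 lower under TMM, 36 lower per mappable read and 14 lower at 20 reads. Males over L4 had 13 and 13 under TMM, 13 and 14 under median of ratios, 13 and 15 with the library size parameter, 10 lower per mappable read, 12 lower without the most abundant rows, 47 higher at 1 read, and 13 and 0 without dog matches. Females over L4 had 34 higher under TMM, 23 and 18 under median of ratios and with the library size parameter, 24 and 17 without the most abundant rows and 5 lower at 20 reads. A scaling shifts every log2 ratio of a comparison by 1 constant, apart from bounds held at 0. Per mappable read the constant was 3.60 (females over males), 2.55 (L4 over L3), -4.54 (L3 over microfilariae), -0.73 (females over microfilariae), -2.34 (males over L4) and 1.26 (females over L4); under TMM it was 0.83, 0.40, 1.28, -0.65, -3.16 and -2.33 in that order. Fewer candidates enter at 20 reads and without dog matches.

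Called ratios turned for 6 cases, and the cause was not tested beyond the shift itself. Per mappable read, the log2 ratio of females over males became 0.69 for PC-5p-6074_174 and 0.55 for PC-3p-4596_246, that of L4 over L3 1.45 for PC-3p-408_2810 and 0.60 for PC-5p-263_4142, that of L3 over microfilariae -0.67 for PC-3p-4596_246, and that of females over L4 0.091 for PC-3p-1789_713. PC-3p-408_2810 also turned to 0.11 under median of ratios and 0.40 without the most abundant rows.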

Other observations

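The 946 candidates under 10 reads in every library added little to the tables. Their share of the reads was 0.117% in microfilariae, 0.163% in L3, 0.0521% in L4, 0.337% in adult females and 0.261% in adult males. In adult females 662 of them had at least 1 read, against 35 in L3. Of their 56 L3 reads, 46.4% lay in rows with a listed dog match, against 0.315% of the 1269 female reads.

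The 6 candidates left out by name held 0.487% of the adult female and 0.606% of the adult male reads, 0.0747% of the microfilarial reads and 1 and 4 reads in L3 and L4. All 6 were at 10 or more reads in adult females.

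Sequences ending in TCT, noticed after the data were seen, were 10 of the 103 candidates (9.71%), 9 of the 173 named rows (5.20%) and 25 of the 946 low candidates (2.64%). By reads they held 37.8% of the candidate reads in microfilariae, 2.87% in L3, 15.3% in L4, 40.5% in adult females and 50.2% in adult males. PC-3p-521_2331 made up most of these reads in microfilariae and females, and PC-5p-799_1592 most of them in males.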
